A study of Homo sapiens with 6 samples.

Results

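The genes described here are 7 mucins, MUC1, MUC4, MUC5AC, MUC5B, MUC13, MUC16 and MUC20, read from a table of 54261 gene symbols by their symbols. They were chosen around the low levels of MUC5AC and MUC16 after MYLK-AS1 knockdown, so their differences between the groups are given as a description, without p-values. All 7 were in the table, all had at least 1 read, and 5 passed the filter on low counts. The cells were PC9/GR, an established line of human lung cancer cells. The knockdown group is 3 samples labelled si-MYLK-AS1, a small interfering RNA (siRNA) against a long non-coding RNA, and the control group is 3 samples labelled si-NC. Dose, harvest time and siRNA sequences were not given in the sources used here, and all 6 libraries come from this 1 line. The title of the series names glutamine metabolism and resistance to EGFR inhibitors as its question.

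Mucins are large glycoproteins whose repeats of serine, threonine and proline carry dense chains of O-linked sugars. MUC5AC and MUC5B are secreted and polymerise into the gel of airway mucus, while MUC1, MUC4, MUC13, MUC16 and MUC20 span the cell membrane and extend a shield of sugar above it. In airways MUC5AC and MUC5B are made by goblet cells and submucosal glands, and MUC16, the antigen CA125, is a tumour marker.

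The libraries held 7551303 to 11055408 reads, with knockdown replicate 3 the shallowest. The target MYLK-AS1, a long non-coding RNA antisense to the kinase gene MYLK, had 0, 5 and 4 reads in knockdown replicates 1 to 3 and 20, 16 and 19 reads in control replicates 1 to 3. It fell (log2 fold change of knockdown over control -2.43, SE 0.60; -1.74 without knockdown replicate 1). Its gene overlaps part of MYLK on the other strand. Since the strand setting was not stated, reads that fall in the shared stretch cannot be told apart. MYLK fell to 27.6 ± 1.58 CPM in the knockdown, against 44.5 ± 6.30 CPM in the control (SD, n = 3 each; -0.69, SE 0.13). For MYLK-AS1 the adjusted p by edgeR's quasi-likelihood test was 0.00326, and a two-sided exact permutation test gave p = 0.1, the smallest that 3 against 3 samples allow. Levels are in CPM, reads per 1000000 of a library size adjusted by the trimmed mean of M-values (TMM). Keratins KRT7, KRT8 and KRT18 were abundant, at 2475 CPM or more on average in either group, so the RNA carried an epithelial signature. All 6 epithelial markers had reads, and their summed level was lower in the knockdown, at 7620 to 8225 CPM, against 11844 to 13867 CPM in the control. KRT7, KRT8 and KRT18 carried that sum, CDH1 and EPCAM fell as well, and KRT19 rose (log2 fold change 0.37, SE 0.10). Whether this bears on the mucin values was not tested. EPCAM was low. Of 6 lung adenocarcinoma and alveolar markers 4 had a read, at low counts, and the surfactant genes SFTPA1 and SFTPB had no read in any library. NAPSA, with 8 to 25 reads per library, was the only marker of that list tested and was not called. EGFR averaged 3.36 ± 0.539 CPM in the knockdown and 2.46 ± 0.807 CPM in the control (SD, n = 3 each). Of 5 leukocyte markers 2 had a read, and PTPRC and CD3E were at 0. Their summed level was 259 to 300 CPM in the knockdown and 169 to 240 CPM in the control, carried by CD68, a lysosomal protein that rose (log2 fold change 0.56, SE 0.12), and its part in the mucin values was not tested. Of 5 markers of mesothelium, a cell type known for MUC16, 4 had a read and UPK3B was at 0. Their summed level was 16.9 to 23.5 CPM in the knockdown and 6.86 to 9.79 CPM in the control, carried by CALB2, and their part in the MUC16 values was not tested. Of 6 fibroblast markers 5 had a read, at a summed 28.4 to 36.3 CPM in the knockdown and 21.8 to 28.1 CPM in the control. COL1A1 carried that sum and was not called. LUM rose from low counts (log2 fold change 2.75, SE 0.46), and the part of these markers in the mucin values was not tested. Whether the replicates were separate cultures is not stated, so each p reflects the variation among these libraries alone, which can be technical. In bulk RNA, fewer cells making a mucin and less mucin RNA per cell cannot be told apart.

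The repeats of these genes show what a mucin message looks like and where its reads can be placed only with doubt. Each unit below has a repeat length known for that mucin, and is the in-frame stretch of that length with the most near copies in the longest coding sequence annotated by GENCODE 29 on GRCh38, with codons for serine, threonine or proline in capitals.
MUC5AC: CCTACAACCAGCACAACCTCTgcc
MUC5B: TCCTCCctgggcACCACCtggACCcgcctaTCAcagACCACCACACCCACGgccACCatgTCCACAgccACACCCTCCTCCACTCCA
MUC1: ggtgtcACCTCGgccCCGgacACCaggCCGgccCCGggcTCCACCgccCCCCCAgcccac
The MUC5AC unit spans 8 codons, of which 7 code for serine, threonine or proline, and 194 copies with at least 75% identical bases made up 27.4% of its coding sequence. The MUC1 unit spans 20 codons and occurred 43 times, filling 68.1%, whereas the MUC5B unit of 29 codons occurred 8 times and filled 4.03%. Codons for these 3 amino acids made up 45.5% of the MUC5AC, 41.8% of the MUC5B and 44.6% of the MUC16 coding sequence, against a median of 18.3% over 9661 coding genes averaging at least 5 CPM. MUC13 was lowest of the 7, at 30.7%. Of all 50-base words in the coding sequence, 22.1% recurred within MUC5AC, 30.3% within MUC5B, 46.8% within MUC1 and 1.08% within MUC16. How reads that match several places were counted was not stated.

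Of the secreted gel formers, MUC5AC was the most abundant mucin and stood far lower after knockdown. MUC5AC (ENSG00000215182.8) spans bases 1157953 to 1201138 of chromosome 11 (GRCh38, plus strand). It had 223, 195 and 133 CPM in knockdown replicates 1 to 3 and 1200.4, 1078 and 784 CPM in control replicates 1 to 3. The highest knockdown library lay well under the lowest control library. Averages were 183 ± 46.1 CPM in the knockdown and 1021 ± 214 CPM in the control (SD, n = 3 each), so the knockdown kept 18.0% of the control level. The fitted log2 fold change was -2.47 (SE 0.24), called lower at an adjusted p of 0.05, and 90 of the 15391 tested genes had a lower one. In the control MUC5AC was the gene with rank 94 by CPM among those tested.

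MUC5B (ENSG00000117983.17), the other airway gel former, begins on the same strand of chromosome 11 at 1223066, downstream of MUC5AC, and ends at 1262172. It had 75.7, 48.4 and 37.9 CPM in knockdown replicates 1 to 3 and 109, 102 and 67.0 CPM in control replicates 1 to 3. The groups overlapped, since knockdown replicate 1 lay above control replicate 3. The averages were 54.0 ± 19.5 CPM in the knockdown and 92.6 ± 22.4 CPM in the control (SD, n = 3 each), and the log2 fold change of -0.76 (SE 0.32) was not called at an adjusted p of 0.05. Leaving out knockdown replicate 1 brought the call, at -1.09.

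The ratio of MUC5AC to MUC5B reads was lower in every knockdown library than in any control library. MUC5AC was chosen for its fall, so nothing more is read from this ratio. Each MUC5B read was accompanied by 2.94, 4.02 and 3.50 MUC5AC reads in knockdown replicates 1 to 3 and by 11.1, 10.6 and 11.7 MUC5AC reads in control replicates 1 to 3. This ratio compares read numbers, not molecules, and it needs no scaling between libraries. MUC5AC made up 69.5 ± 3.11% of the reads of the 7 genes in the knockdown and 87.0 ± 0.445% in the control (SD, n = 3 each). Summed over the 7 genes, the level was 264 ± 69.8 CPM in the knockdown and 1174 ± 251 CPM in the control. Without MUC5AC it was 80.9 ± 25.9 CPM in the knockdown and 153 ± 37.1 CPM in the control.

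**Figure D1:**
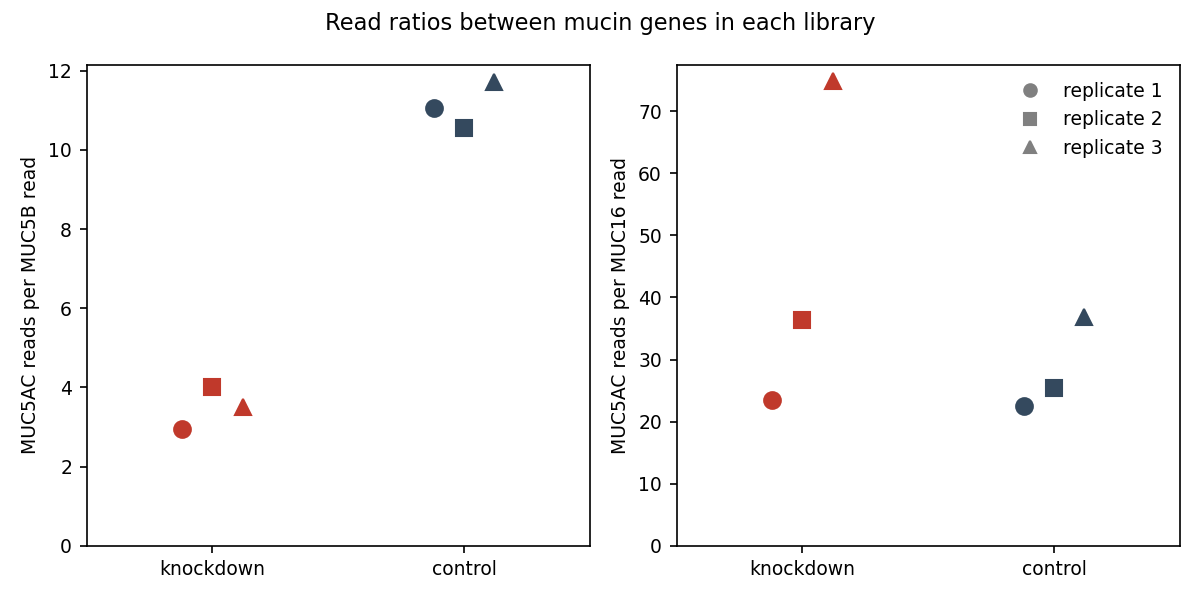
MUC5AC reads per MUC5B read (left) and per MUC16 read (right) in each library, with the knockdown in red and the control in dark blue and a symbol for each replicate. The left ratio is 2.94 to 4.02 in the knockdown and 10.6 to 11.7 in the control, while the right ratio overlaps between the groups.

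Among the membrane mucins, MUC16 was the lowest against its control. MUC16 (ENSG00000181143.15), on the minus strand of chromosome 19 from 8848844 to 8981342, is annotated with 43.8 kb of exon sequence. It had 9.50, 5.35 and 1.77 CPM in knockdown replicates 1 to 3, from 104, 51 and 13 reads, and 53.2, 42.4 and 21.2 CPM in control replicates 1 to 3, from 478, 440 and 232 reads. The groups did not overlap, but each spread widely. Averages were 5.54 ± 3.86 CPM in the knockdown and 38.9 ± 16.2 CPM in the control (SD, n = 3 each), or 14.2% of the control level. The log2 fold change was -2.73 (SE 0.64), and 56 of the 15391 tested genes had a lower one. MUC16 was called lower at an adjusted p of 0.05 with all 6 libraries. The call was lost when knockdown replicate 2 (-2.67), control replicate 1 (-2.46) or control replicate 2 (-2.67) was dropped, and the value moved to -3.37 without knockdown replicate 1. MUC5AC reads per MUC16 read were 23.5, 36.4 and 74.8 in knockdown replicates 1 to 3 and 22.6, 25.4 and 36.9 in control replicates 1 to 3, so that ratio overlapped between the groups.

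MUC1, the membrane mucin of most glandular epithelia, was low in these cells. It had 6.85, 4.51 and 3.14 CPM in knockdown replicates 1 to 3 and 7.56, 7.61 and 7.78 CPM in control replicates 1 to 3. The control libraries were nearly level, and each knockdown library lay under them. The averages were 4.83 ± 1.88 CPM in the knockdown and 7.65 ± 0.113 CPM in the control (SD, n = 3 each). The log2 fold change of -0.63 (SE 0.25) was not called in the main fit. With all libraries kept, the call depended on the method. MUC1 was called without TMM scaling (-0.66) and without the filter on low counts (-0.62), among other settings. It was not called by DESeq2 (-0.63) or with RLE size factors (-0.63). Without knockdown replicate 1 it was called, at -0.98. Without knockdown replicate 3 it was -0.41 and not called. MUC1 (ENSG00000185499.16) lies on the minus strand of chromosome 1 from 155185824 to 155192916.

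MUC13, a membrane mucin best known from gut epithelium, was the single tested member with a higher average after knockdown. It had 16.9, 13.5 and 16.4 CPM in knockdown replicates 1 to 3 and 12.5, 10.6 and 14.0 CPM in control replicates 1 to 3, and the groups overlapped. The averages were 15.6 ± 1.82 CPM in the knockdown and 12.4 ± 1.70 CPM in the control (SD, n = 3 each). The log2 fold change was 0.33 (SE 0.17) and was not called. MUC13 (ENSG00000173702.7) lies on the minus strand of chromosome 3 from 124905442 to 124953819, 1261 kb from the end of MYLK-AS1 on the same chromosome.

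MUC4, a membrane mucin that binds the receptor ERBB2, and MUC20, a small membrane mucin that binds the receptor MET, were close to the limit of counting. MUC4 had 1, 0 and 2 reads in knockdown replicates 1 to 3 and 2, 1 and 9 reads in control replicates 1 to 3. MUC20 had 11, 2 and 8 reads in the knockdown and 9, 10 and 6 reads in the control. A count of 3 corresponds to between 0.274 and 0.410 CPM. Both genes were left out by the filter, so neither difference was tested. The pseudogene copy MUC20P1 had 5, 2 and 4 reads in the knockdown and 5, 13 and 13 reads in the control, and reads of the pair may be shared.

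**Figure D2:**
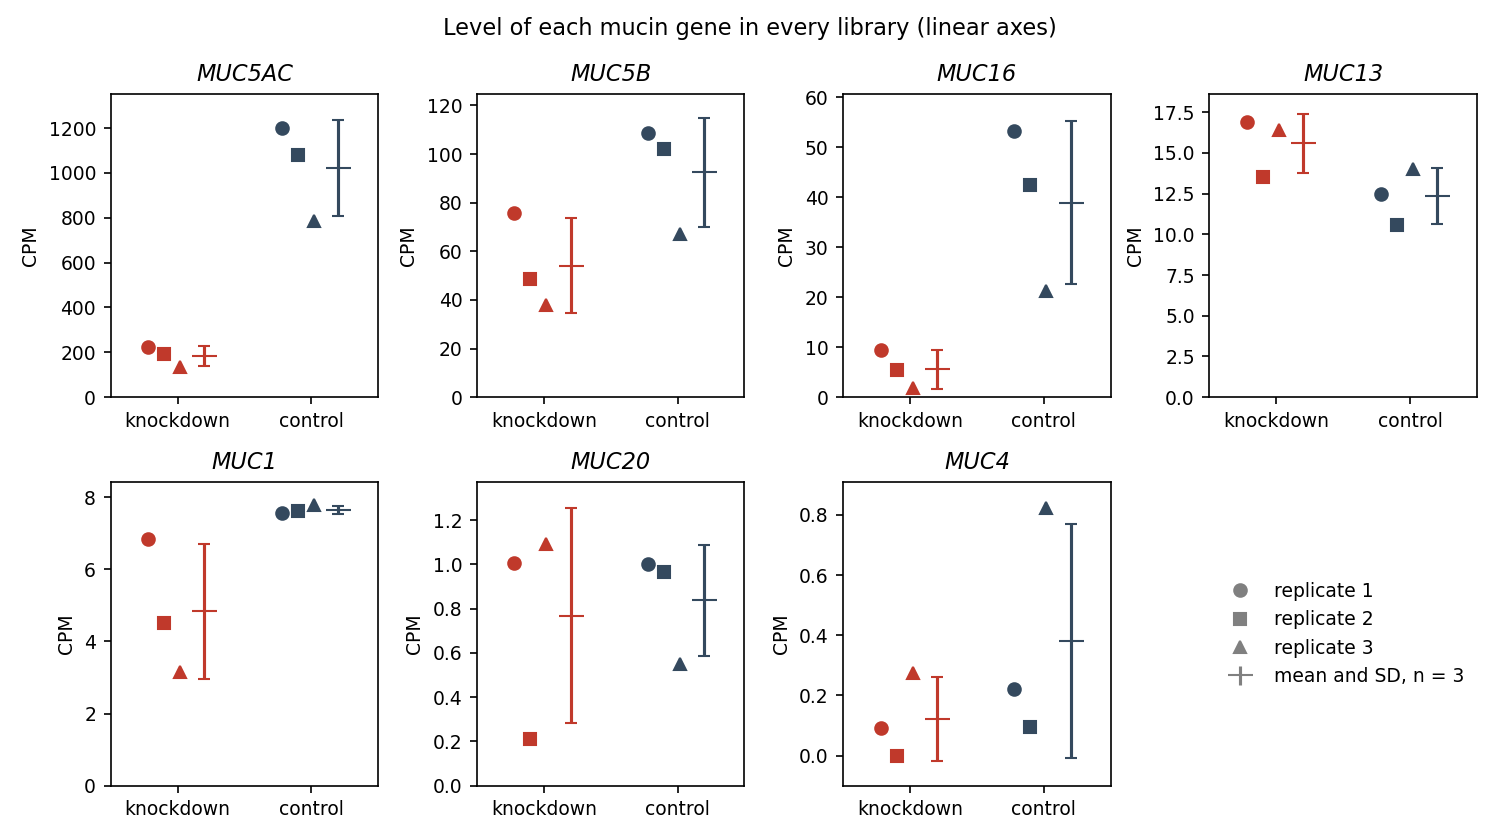
CPM of the 7 mucin genes in each library on linear axes, with the knockdown in red left of the control in dark blue, a symbol for each replicate and the mean with its SD beside them. MUC5AC and MUC16 lie lower in every knockdown library than in any control library, MUC1 does so by a smaller step, and MUC5B, MUC13, MUC20 and MUC4 overlap.

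Of the 5 tested members, MUC5AC and MUC16 were called lower and 3 were not called, against 20.7% of all tested genes called lower and 42.0% called in either direction. In 3 of the 5 the groups' CPM did not overlap, with the knockdown lower, against 26.1% of all tested genes in that direction and 52.2% in either. The median log2 fold change of the 5 was -0.76, against -0.00050 over all tested genes. Because the members were picked on this contrast, nothing is read from these shares.

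Per kilobase of annotated exon sequence, the order of levels changed at several places. This length joins all annotated exons of a gene, not the transcripts expressed here. How reads in repeats were counted was not stated, so the order between genes is approximate. MUC5AC came first in both groups, at 10.5 ± 2.64 CPM per kb in the knockdown and 58.5 ± 12.3 CPM per kb in the control (SD, n = 3 each, here and for the next genes). MUC13, at 4.46 ± 0.519 CPM per kb in the knockdown and 3.53 ± 0.487 in the control, was second in the knockdown. MUC5B, at 2.90 ± 1.05 CPM per kb in the knockdown and 4.98 ± 1.20 in the control, was second in the control. These 2 genes exchanged places, with overlapping libraries in each group. MUC1 came next in both groups, at 1.02 ± 0.398 CPM per kb in the knockdown and 1.62 ± 0.0241 in the control. MUC16 stood at 0.126 ± 0.0882 CPM per kb in the knockdown and 0.888 ± 0.371 in the control. MUC20 stood at 0.181 ± 0.114 CPM per kb in the knockdown and 0.197 ± 0.0590 in the control. MUC16 was therefore above MUC20 in every control library and overlapped it in the knockdown, and MUC4 was last in both groups.

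The most abundant of the long mucins shared an order of libraries within each group. MUC5AC, MUC5B and MUC16, with 17.4, 18.6 and 43.8 kb of exon sequence, were lowest in replicate 3 of the knockdown and in replicate 3 of the control. Other long mucins did not all follow. MUC3A, with 11.4 kb, was highest in replicate 3 of both groups, as was MUC4 at a few reads, and MUC2, with 12.7 kb, was lowest in knockdown replicate 3 and highest in control replicate 3. A set of 397 protein-coding genes had a transcript of at least 10 kb and a mean of at least 5 CPM, with the mucin members left out. Their median log2 level against the control mean was 0.07, 0.10 and -0.15 in knockdown replicates 1 to 3 and 0.14, 0.09 and -0.23 in control replicates 1 to 3. Over 1577 genes with no transcript of 2 kb or more, the medians were -0.05, -0.06 and 0.04 in the knockdown and -0.06, -0.04 and 0.11 in the control. Between the groups the long genes had a median log2 fold change of 0.03. Of the 397, 86 were called lower and 81 higher, against 20.7% lower and 21.3% higher over all tested genes. Whether transcript length bears on the mucin values was not tested further. None of the 397 had a lower log2 fold change than MUC5AC, the lowest being -1.74, but MUC16, left out of the set, did. MUC5AC was chosen for its fall, so nothing is read from this rank. With replicate 3 of both groups left out, the log2 fold change was -2.45 for MUC5AC (SE 0.08), -2.66 for MUC16 (SE 0.21) and -0.75 for MUC5B (SE 0.24).

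**Figure D3:**
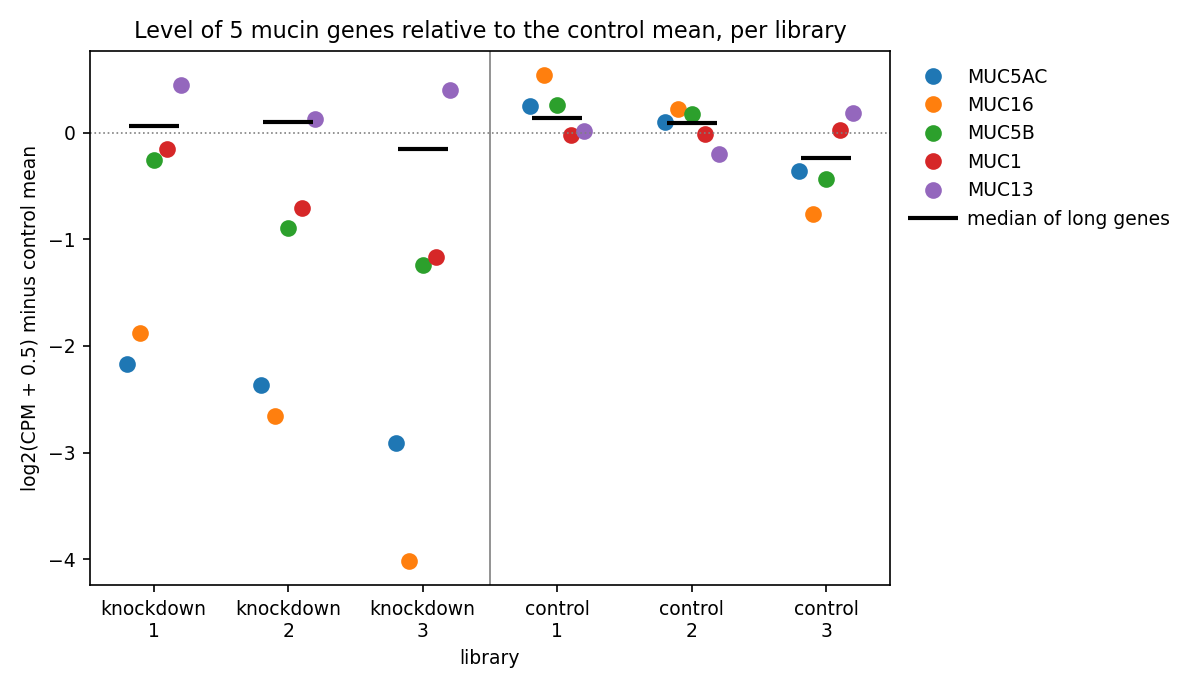
Level of the 5 tested mucin genes in each library as log2(CPM + 0.5) minus the mean of the control libraries, with black bars for the median of 397 long genes other than the members. MUC5AC, MUC16 and MUC5B are lowest in replicate 3 of either group, where the long genes are lowest too, and the bars lie between -0.23 and 0.14.

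The promoters of MUC16 and MUC13, the tested membrane mucins with the lowest and the highest log2 fold change, are shown from 250 bases before the start to 50 after it, as given by RefSeq on GRCh38.p14 for the minus strand. Entries were matched for MUC1, MUC4, MUC13 and MUC16, and of the MUC16 entries the more upstream is shown. Capitals mark matches on either strand to the motifs searched. These were TATAAA for the TATA box, GGGCGG for the GC box and the letters of the CCAAT box. CACCTG stood for an E-box and TGANTCA for the AP-1 site. TGTTTAC stood for the FOXA site and AGAACA for a single arm of the glucocorticoid receptor element, called a GR arm here.
MUC16, chr19:9065702-9066001: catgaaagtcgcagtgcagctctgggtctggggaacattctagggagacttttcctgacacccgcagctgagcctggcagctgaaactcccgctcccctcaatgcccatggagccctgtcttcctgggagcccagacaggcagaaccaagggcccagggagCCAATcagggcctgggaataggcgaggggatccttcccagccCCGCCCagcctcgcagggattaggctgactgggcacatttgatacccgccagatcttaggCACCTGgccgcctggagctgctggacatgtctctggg
MUC13, chr3:124934702-124935001: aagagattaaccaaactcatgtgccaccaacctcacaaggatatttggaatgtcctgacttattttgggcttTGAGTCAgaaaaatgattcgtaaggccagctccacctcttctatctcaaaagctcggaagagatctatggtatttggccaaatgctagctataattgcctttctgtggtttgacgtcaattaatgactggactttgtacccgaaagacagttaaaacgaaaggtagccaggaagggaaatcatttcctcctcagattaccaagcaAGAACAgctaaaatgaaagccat
The MUC16 window shown held a GC box, found in 45.0% of 35116 promoter windows of the same length, a CCAAT box, found in 34.6%, and an E-box, found in 20.6%. The other MUC16 window differed: it held an AP-1 site and an E-box but neither a GC box nor a CCAAT box. The MUC13 window held an AP-1 site, found in 7.71%, and a GR arm, found in 14.8%. Each MUC1 window held 4 GC boxes, some of them overlapping, 2 E-boxes, 2 GR arms and a TATA box, found in 11.5%, and the MUC4 window held 1 GC box. The starts of both MUC16 entries lie upstream of the GENCODE 29 gene, that of the entry shown farther away, and the start of MUC13 lies inside its gene. A match says only that these letters occur in the window.

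Other genes of the MUC family were scarce. Of 13 further mucin and mucin-like genes found in the table, 7 had a read and 4 were tested. MUC2, the gel-forming mucin of the gut, lies beside MUC5AC on chromosome 11 from 1074875 to 1110511. It fell, with 9, 11 and 3 reads in knockdown replicates 1 to 3 and 32, 36 and 48 reads in control replicates 1 to 3 (-2.20, SE 0.38, adjusted p = 0.000151 by edgeR). MUC3A, a membrane mucin of the gut, fell to 5.79 ± 0.837 CPM in the knockdown, against 9.44 ± 0.790 CPM in the control (SD, n = 3 each). Its log2 fold change was -0.71 with an SE of 0.20, and its adjusted p was 0.00869 by edgeR. Its neighbour MUC12, with which repeats may share reads, did not pass the threshold (0.91, SE 0.46, adjusted p = 0.118 by edgeR), with 20, 11 and 8 reads in the knockdown and 8, 9 and 5 reads in the control. The oviduct glycoprotein gene OVGP1 had -0.74 (SE 0.33, adjusted p = 0.0794 by edgeR), which was called without knockdown replicate 1, at -1.04. MUC6, MUC17 and MUC22 had between 1 and 5 reads over all libraries.

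Around the gel-forming cluster, 17 protein-coding genes within 500 kb of MUC5AC were tested, MUC5B and MUC2 among them. Of these, 8 fell and 9 were not called, against 20.7% lower over all tested genes, and their median log2 fold change was -0.43. MUC2 was the lowest of the 17. Within 500 kb of MUC16, 3 of 12 tested genes fell and 9 were not called. Within 500 kb of MUC13, 3 of 6 rose and 3 were not called, against 21.3% higher over all tested genes. Other windows were mixed. Around MUC1, 4 of 30 tested genes rose and 9 fell. Around MUC4, 3 of 8 rose and 2 fell, and around MUC20, whose window shares genes with that of MUC4, 3 of 7 rose and 1 fell. The MUC5B window, which shares most genes with that of MUC5AC, had 9 of 18 lower and 0 higher. These neighbours were listed by position after the members' values were known.

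The enzymes that build O-linked sugars were mostly higher or not called. Of 19 tested, 10 rose and 1 fell, against 21.3% higher and 20.7% lower over all tested genes, and the median log2 fold change was 0.37. C1GALT1, the enzyme that makes the core 1 structure, had 76.2, 80.7 and 79.2 CPM in knockdown replicates 1 to 3 and 36.2, 34.4 and 27.5 CPM in control replicates 1 to 3 (log2 fold change of 1.27, SE 0.12, adjusted p = 2.77e-07 by edgeR). GCNT3, the mucin-type branching enzyme, averaged 340 ± 21.6 CPM in the knockdown and 170 ± 2.70 CPM in the control (SD, n = 3 each; 1.00, SE 0.09). The initiating transferases GALNT5 (0.95, SE 0.15) and GALNT12 (0.53, SE 0.11) rose, and GALNT11 fell (-0.60, SE 0.12). No knockdown library of any of these 5 overlapped a control library, against 52.2% of all tested genes without overlap in either direction. These 5 were picked from the list by lowest p, so nothing is read from this.

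Among 11 tested transcription factors tied to mucous cells, 3 rose and 3 fell, or 27.3% in each direction, against 21.3% higher and 20.7% lower over all tested genes. SPDEF, the factor that drives goblet cell differentiation, fell to 2.57 ± 0.860 CPM in the knockdown, against 7.92 ± 1.59 CPM in the control (SD, n = 3 each; log2 fold change, log2FC, -1.60, SE 0.27, adjusted p = 0.000149 by edgeR). SP1, the factor that binds GC boxes, fell (-0.80, SE 0.15, adjusted p = 0.000645 by edgeR). XBP1, a regulator of secretory capacity (0.85, SE 0.11), and KLF4, an epithelial differentiation factor (0.84, SE 0.13), rose. STAT6, which relays interleukin-13 signals, rose slightly (0.29, SE 0.09), but not past the threshold without knockdown replicate 1 (0.27), knockdown replicate 2 (0.26) or control replicate 1 (0.24). The median log2 fold change of the 11 was -0.08.

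Of 13 genes for mucin folding and mucus partners, 3 were tested and all 3 passed the threshold, against 42.0% of all tested genes in either direction. FCGBP, a protein that is part of mucus, fell to 20.8 ± 2.38 CPM in the knockdown, against 83.9 ± 3.99 CPM in the control (SD, n = 3 each; log2FC -2.01, SE 0.12, adjusted p = 1.94e-09 by edgeR). AGR2, a disulfide isomerase needed to fold gel-forming mucins, had 239, 216 and 233 CPM in knockdown replicates 1 to 3 and 473, 487 and 510 CPM in control replicates 1 to 3 (-1.10, SE 0.09, adjusted p = 3.95e-08 by edgeR). TFF1, a trefoil peptide secreted with gastric mucus, rose from low counts, with 31, 23 and 26 reads in the knockdown and 3, 4 and 11 reads in the control (2.28, SE 0.44; 2.96 without control replicate 3). The airway secretory genes BPIFA1, BPIFB1, SCGB3A1, CLCA1, AGR3 and TFF3 had no read in any library. SCGB1A1, of the same list, had 10 reads in control replicate 3 and no read in any other library.

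In the machinery that releases mucin granules, 5 of 14 tested genes fell and 2 rose, against 20.7% lower and 21.3% higher over all tested genes, with a median log2 fold change of -0.23. MARCKS, which moves granules to the membrane, fell to 23.3 ± 1.09 CPM in the knockdown, against 55.7 ± 0.140 CPM in the control (SD, n = 3 each; log2FC -1.26, SE 0.12, adjusted p = 2.24e-07 by edgeR). The granule GTPases RAB3D (-1.06, SE 0.12) and RAB27A (-0.85, SE 0.19) and the priming factor UNC13D (-0.58, SE 0.12) fell with it. NSF, the fusion ATPase, fell too (-2.33, SE 0.20), though it has near-identical copies with which reads may be shared.

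Among partners and proteases of the membrane mucins, 3 of 10 tested genes fell and 2 rose, against 20.7% lower and 21.3% higher over all tested genes. ERBB3, a receptor in the family that MUC4 binds, had 13.8, 11.01 and 10.92 CPM in knockdown replicates 1 to 3 and 39.9, 45.7 and 36.0 CPM in control replicates 1 to 3 (log2FC -1.76, SE 0.15, adjusted p = 8.08e-08 by edgeR). CTNNB1, the beta-catenin that binds the MUC1 tail (0.57, SE 0.09), and LGALS3, the galectin-3 that binds mucin sugars (0.45, SE 0.11), rose. The sheddases MMP14 (-1.49, SE 0.40) and ADAM17 (-0.37, SE 0.11) fell. MMP14 moved to -2.31 without knockdown replicate 1, and ADAM17 was not called without control replicate 1, at -0.32. Over the 61 tested genes of the 6 lists, 18 rose and 16 fell, against 21.3% and 20.7% of all tested genes.

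**Figure D4:**
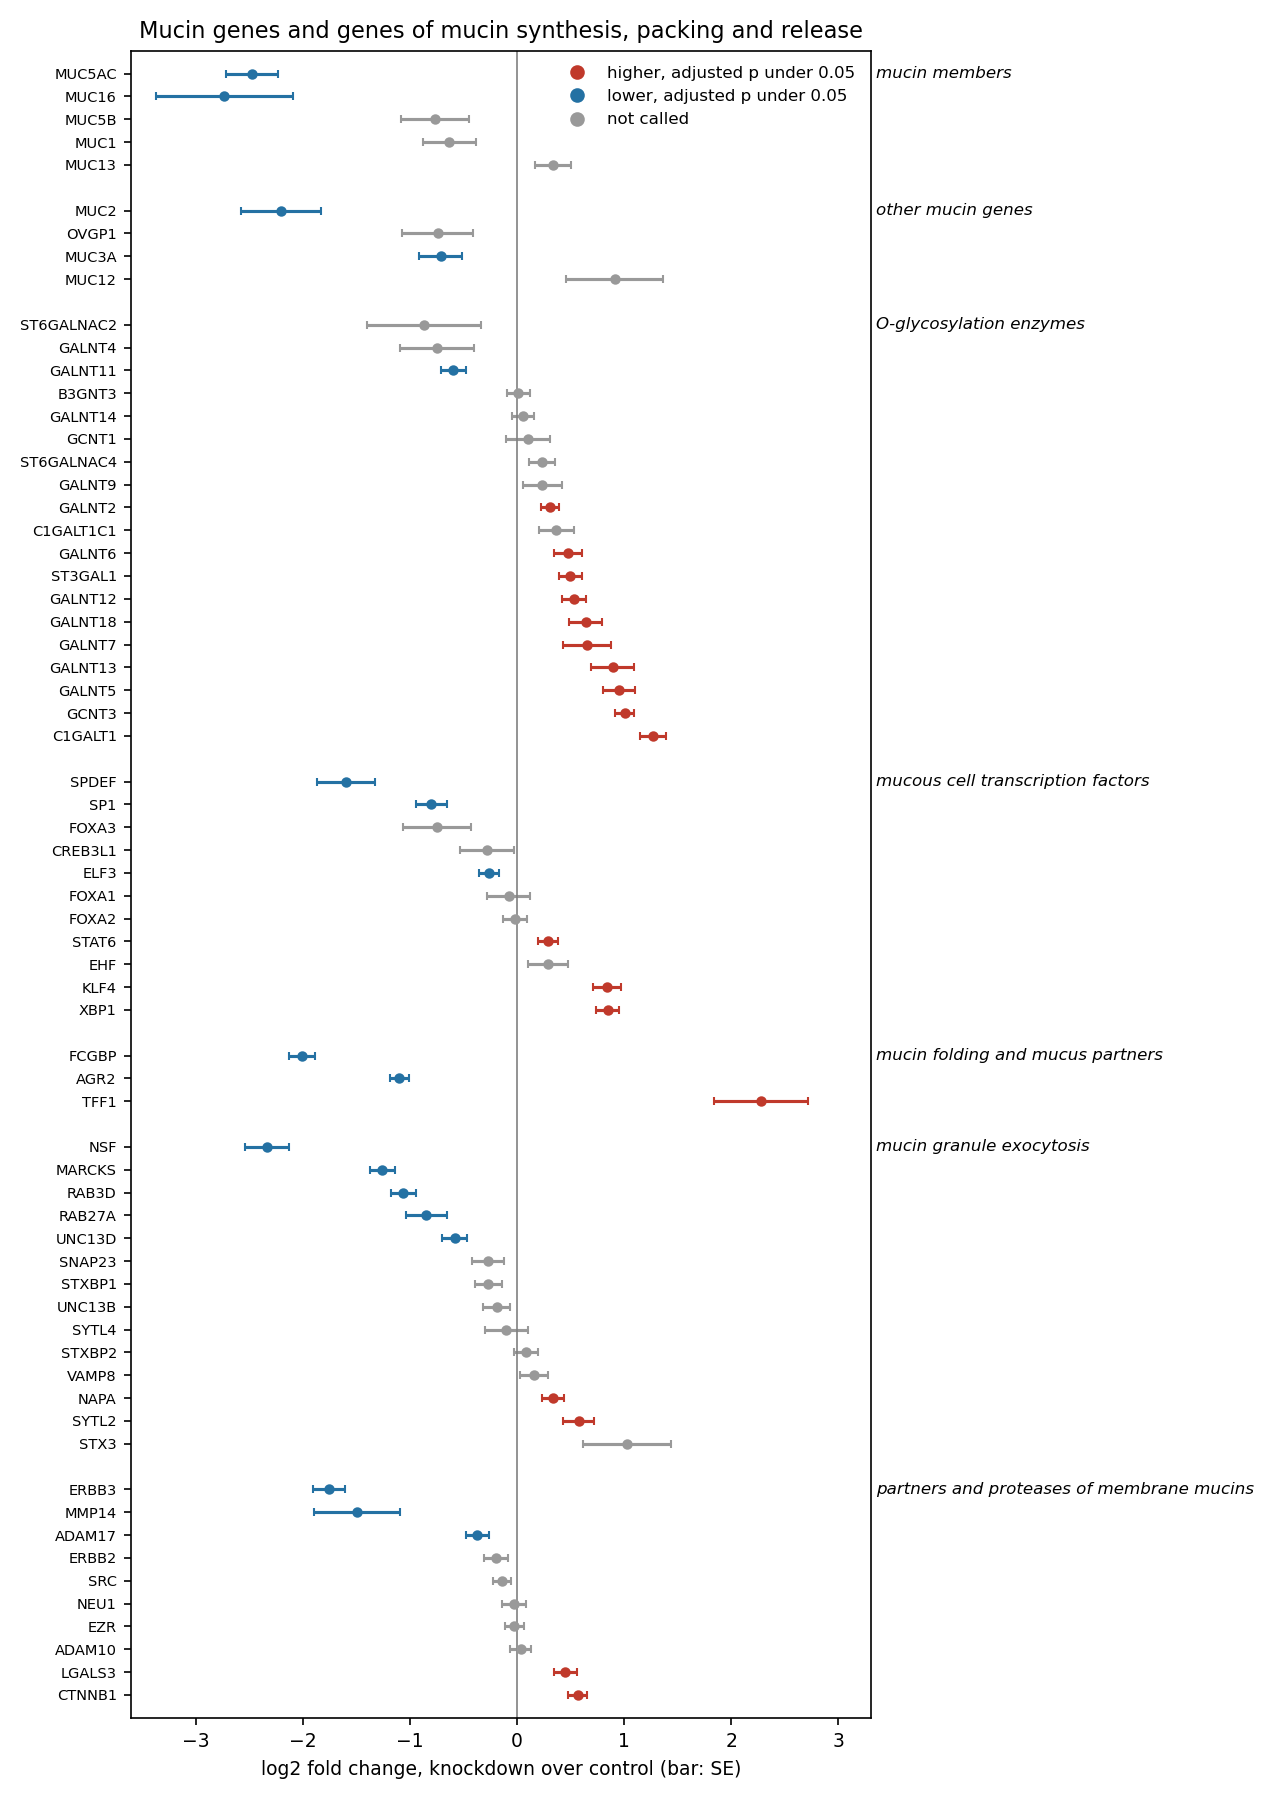
Log2 fold change of knockdown over control with its SE for the 5 tested mucin members, 4 further mucin genes and the other tested genes of mucin glycosylation, regulation, folding, release and binding, coloured by call at an adjusted p of 0.05. The O-glycosylation enzymes lie mostly right of 0, MUC5AC, MUC16, MUC2, NSF and FCGBP lie left of -2, and the other lists spread to both sides.

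The genes with a profile closest to MUC5AC over the 6 libraries, among 8215 candidates with a mean of at least 10 CPM, were CTSV, NSF, ND6, PSRC1 and FCGBP. Likeness was the Euclidean distance between log2 profiles centred on their own means, and it was 0.608 for CTSV, a cathepsin, and 0.772 for FCGBP. Closest to MUC16 were CTSV at 1.35, ND6 at 1.36, TMEM30A at 1.70, the sialyltransferase gene ST6GAL2 at 1.73 and NSF at 1.85. All of these were lower in every knockdown library than in any control library, as were 26.1% of all tested genes. They were picked for likeness to MUC5AC and MUC16, which fell in that way, so nothing is read from this.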

How the data were processed

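RNA of 6 PC9/GR samples was extracted with Trizol and sequenced from Ion Proton libraries, per the labels' protocols. The deposited file holds the authors' raw read counts per gene symbol. The submitters' processing notes name GRCh38, and aligner, counter, annotation and strand setting were not given in the sources used here.

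Counts were tested with edgeR 4.0.16 in R 4.3.3: low counts removed by filterByExpr, TMM scaling, a robust quasi-likelihood model and its two-sided F test, with Benjamini-Hochberg adjustment over 15391 genes and a threshold of 0.05. The SE is the log2 fold change divided by the square root of F. CPM use the TMM-adjusted library size. Alternatives used DESeq2 1.42.0, limma-voom (limma 3.58.1), other scalings and filters, each library left out and a replicate block. The pipeline was tested on simulated counts. Depth limits precision as the floor of 3 reads shows, and that floor covers counting error only. Of 139 list symbols 138 were matched, 1 through an older symbol.

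The members and lists were chosen with earlier results of these data known. The rule for named genes takes the members, other mucin genes with reads, up to 5 genes per list with the lowest p, and the 5 profiles nearest to MUC5AC and MUC16. Marker genes are named besides, and neighbours are counted. Positions and transcripts came from GENCODE 29 on GRCh38.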

Additional observations from a re-analysis of the deposited data

How the results depend on the processing

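Over 14 alternatives, 495 of 512 recomputed values stayed the same, and no log2 fold change reversed its direction. A log2 fold change stayed the same if it kept its direction and its side of the threshold. A count of called genes stayed the same if it was within a set factor of the main count. MUC5AC stayed called in all 14, at -2.63 to -2.28 with 1 library left out. MUC16 lost its call without the filter on low counts (log2 fold change -2.73, SE 0.68) and ranged from -3.37 to -2.36 with 1 library left out. The cause was not tested. MUC1 was called lower under 6 alternatives (-0.98 to -0.62) and MUC5B under 2, the replicate block (-0.80) and the loss of knockdown replicate 1. The deviations of same-numbered replicates from their group means had correlations over genes of -0.052, 0.0778 and 0.0636, and not every sample correlated best with its own number, so the numbers were not taken as pairs. With the replicate block 3321 genes were called higher and 3200 lower, against 3274 and 3183 without it. Pathway genes called numbered 17 to 20 higher and 14 to 19 lower over all alternatives. The filter of 5 CPM in 3 libraries left MUC2, MUC12, OVGP1, TFF1, MMP14 and MYLK-AS1 with no value. Leaving out replicate 3 of both groups was chosen after seeing the data. Genes under the filter, MUC4 and MUC20 among them, were not tested in the main fit, so no difference is read from their counts.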
